A study of Mus musculus with 9 samples.

Results

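The regions described here are the peaks that the authors' caller found in the input DNA of Twist1 knockout embryoid bodies, a library made without antibody. All peaks of that list on chromosomes 1 to 19 were taken, which gave 1602 of its 1774 peaks. They stand among 227494 peaks that the 7 lists analysed here hold on the same chromosomes. The list holds what passed the caller's q-value limit, so its members were chosen by their height over background, and heights are given only as a description. The lowest −log10 q was 2.02, at a peak 1520 bp from Gm3667, and peaks just outside the limit are not listed.

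The study mapped binding of TWIST1, a basic helix-loop-helix transcription factor of mesoderm and neural crest, by ChIP-seq. Its A2loxcre mouse embryonic stem cells, given as C57BL/6, lacked Twist1 in every group. Twist1-OE cells (Twist1-/- with a doxycycline-inducible Flag-Twist1 cassette) gave 4 ChIP libraries with a TWIST1 antibody, called OE libraries 1 to 4. Twist1-KO cells (Twist1-/- without the cassette) gave 2 ChIP libraries with the same antibody, KO libraries 2 and 3, and the input library. Both genotypes were grown as embryoid bodies for 3 days of differentiation and received doxycycline for 16 h, so the KO input had the drug without the cassette. The labels name no clone, and 2 Twist1-OE input libraries were not analysed here. The input is a single library with no replicate, and intervals on its shares cover counting error only.

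Input DNA is crosslinked, sonicated chromatin that is sequenced without immunoprecipitation. Its coverage is not flat: open chromatin shears and is recovered differently from compact chromatin, base composition affects amplification, and sequence present in more copies in the cells than in the assembly piles up reads. For this reason input is widely used as the control against which ChIP enrichment is judged.

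The gene starts where input summits fell are shown by 6 promoters from RefSeq (GRCm38.p6, the same coordinates as mm10). Each is the stretch of 250 bases before the gene start, 5′ to 3′ on the gene's strand, and capitals mark matches to the searched motifs other than the general E-box, on either strand. Smarca5 (chr8:80739460-80739709, minus strand) encodes the ATPase of ISWI chromatin remodellers. Kcng3 (chr17:83631896-83632145, minus strand) encodes a modulatory potassium channel subunit, and Zfp384 (chr6:125009419-125009668, plus strand) a zinc finger transcription factor. The input peaks at these 3 genes were overlapped by peaks of all 4 OE lists.
Smarca5: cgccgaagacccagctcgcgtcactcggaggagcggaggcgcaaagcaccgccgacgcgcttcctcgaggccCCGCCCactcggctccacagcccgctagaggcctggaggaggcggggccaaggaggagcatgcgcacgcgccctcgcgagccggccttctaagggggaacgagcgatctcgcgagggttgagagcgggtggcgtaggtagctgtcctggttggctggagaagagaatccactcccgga
Kcng3: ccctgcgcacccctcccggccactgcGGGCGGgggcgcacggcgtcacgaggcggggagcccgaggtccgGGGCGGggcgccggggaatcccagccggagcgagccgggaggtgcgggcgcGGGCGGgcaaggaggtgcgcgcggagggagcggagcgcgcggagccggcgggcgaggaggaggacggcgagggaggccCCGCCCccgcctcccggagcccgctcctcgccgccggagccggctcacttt
Zfp384: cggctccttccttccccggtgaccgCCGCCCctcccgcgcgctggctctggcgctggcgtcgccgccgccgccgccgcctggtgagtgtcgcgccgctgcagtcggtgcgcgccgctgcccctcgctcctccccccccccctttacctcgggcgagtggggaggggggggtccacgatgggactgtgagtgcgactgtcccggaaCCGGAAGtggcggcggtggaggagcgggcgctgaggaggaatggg
The others had input peaks that no OE peak overlapped. Rnf168 (chr16:32277211-32277460, plus strand) encodes a ubiquitin ligase of the DNA damage response, Hipk4 (chr7:27523011-27523260, plus strand) a protein kinase and Nt5c1a (chr4:123201235-123201484, plus strand) a cytosolic nucleotidase.
Rnf168: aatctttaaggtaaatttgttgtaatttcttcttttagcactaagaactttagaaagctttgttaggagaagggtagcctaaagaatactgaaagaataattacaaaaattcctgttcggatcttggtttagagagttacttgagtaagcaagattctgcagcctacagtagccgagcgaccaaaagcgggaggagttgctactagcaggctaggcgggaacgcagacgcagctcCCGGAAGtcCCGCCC
Hipk4: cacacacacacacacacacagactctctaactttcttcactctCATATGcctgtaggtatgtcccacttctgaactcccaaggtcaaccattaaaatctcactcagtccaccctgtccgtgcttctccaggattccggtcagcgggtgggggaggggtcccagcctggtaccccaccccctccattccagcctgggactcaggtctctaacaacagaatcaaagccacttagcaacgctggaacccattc
Nt5c1a: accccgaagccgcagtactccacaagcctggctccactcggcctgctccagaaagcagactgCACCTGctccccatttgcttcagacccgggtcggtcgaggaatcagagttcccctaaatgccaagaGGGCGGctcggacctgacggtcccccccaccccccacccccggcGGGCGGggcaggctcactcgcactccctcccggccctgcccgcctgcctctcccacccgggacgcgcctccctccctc
Kcng3 had the most GC-rich of these windows, 82.4% G or C with 41 CG dinucleotides in the printed bases, and its matches were all to GGGCGG. Smarca5 had 69.2% and 29 CG, and Zfp384 76.0% and 33, with a CTTCCGG match besides GGGCGG. Rnf168, with 43.6% and 9 CG, carried matches to the same pair of motifs. Hipk4 had 53.6% and 4 CG, and its only match in capitals was the E-box CATATG. Nt5c1a had 70.0% and 18 CG, with 2 matches to GGGCGG and 1 to CACCTG or CAGGTG. The rule that chose these also gave a pair of numbered gene models that are not printed, Gm38418 (73.6% and 27 CG, all 4 OE lists) and Gm5458 (47.2% and 2 CG, no OE list).

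The values at these promoters follow, library by library. Fold enrichment is the caller's summit height over its local background, with 1 added to each. At Smarca5 the input fold enrichment was 4.69, from a summit pileup of 34 fragments. The OE peaks there had folds of 34.9, 9.82, 9.49 and 14.98 in libraries 1 to 4. At Kcng3 the input fold was 4.56 and the OE folds were 53.9, 116, 147 and 39.5. Zfp384 had 4.56 in the input and 22.5, 11.6, 10.2 and 16.3 in the OE libraries. At Rnf168 the input fold was 3.75 and at Hipk4 and Nt5c1a 3.49, beside a median of 3.49 over all input peaks. Read totals are not given and the libraries differ in their commonest background level, so folds of different libraries are listed together without a comparison. No KO list overlapped any of these 6 peaks.

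The input peaks gathered at the ends of protein-coding genes. Of the 1602 peaks, 676 (42.2%, 95% exact interval 39.8 to 44.7) had a summit no more than 1 kb from a gene's start or far end, a class that holds 3.08% of the bases of these chromosomes, so the share was 13.7 times that of the bases. A further 381 (23.8%) lay deeper inside genes, where 38.8% of bases lie, and 545 (34.0%) lay between genes, where 58.1% lie. The same near-end share was 25.5%, 14.5%, 16.4% and 33.3% in OE lists 1 to 4 and 11.1% and 7.69% in KO lists 2 and 3. The input list thus had a higher share near gene ends than any of the 6 ChIP lists. With 1 input library this difference was not tested. The share was 30.5% among peaks with −log10 q of at least 5, below that of OE list 4. It was 10.1% at −log10 q of at least 10, where 67.5% lay between genes, more than the 58.1% of bases.

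Where the strand of the nearest gene was known, the gene end in question was nearly always the start. RefSeq promoters with a strand covered 552 of the near-end peaks by their nearest gene, and in 533 (96.6%) the nearest end was the gene start. Of 664 near-end peaks on chromosomes with such promoters, 520 (78.3%) had the summit within 1 kb of a start with a known strand. Among these 520, which the limit of 1 kb keeps close, the median offset was 31 bp downstream, with quartiles of 82 bp upstream and 239 bp downstream. For Smarca5 the summit lay 69 bp upstream, for Zfp384 44 bp upstream and for Rnf168 14 bp downstream. The start class also held Ddx59, a DEAD-box helicase gene, with its summit 206 bp downstream, and Tpt1, which encodes a translationally controlled tumour protein, with its summit 80 bp upstream. Of near-end peaks, 13.3% had ends of at least 2 genes within 1 kb, beside 10.5% to 13.1% of near-end peaks in the OE lists.

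**Figure D1:**
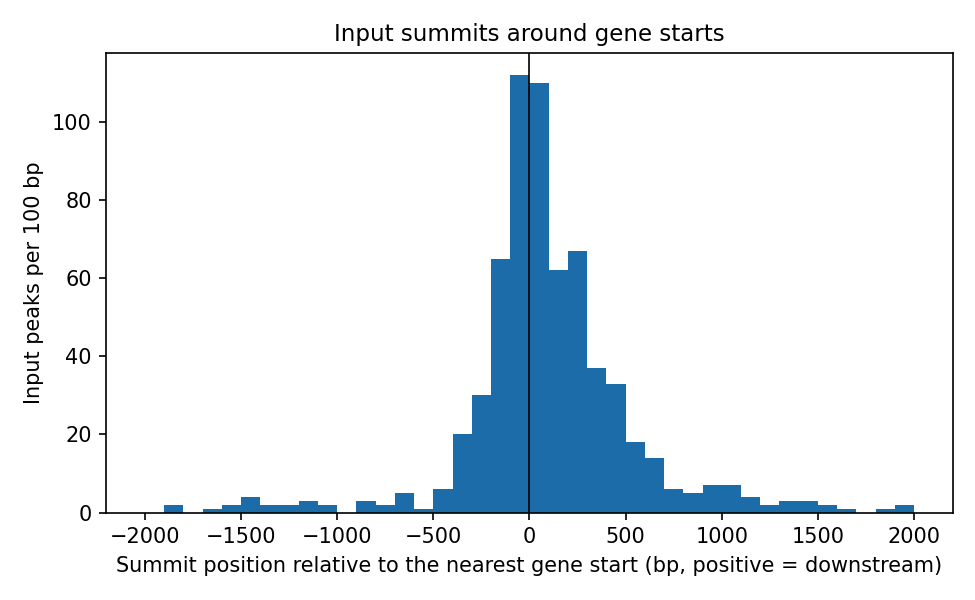
Distance of input summits from the nearest gene start with a known strand, in bp (x axis; positive is downstream), as the number of input peaks per 100 bp (y axis) for summits within 2 kb. The bars are highest on both sides of the start; among the 520 near-end peaks within 1 kb of a start the median offset is 31 bp downstream.

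The peaks were divided into 2 kinds by the level of their surroundings. The pileup at the summit and the background that the caller used follow from its fold and p-value, and both were recovered for 1594 of the 1602 peaks. The background was at its genome-wide level of 6.46 fragments at 990 peaks and raised above it at 604. The division is a cut in a continuous value: near Gpd2 the background was 6.67 fragments, which counts as raised. Of the 990, 64.2% were near gene ends, and of the 604, 6.62%. Near-end peaks were low and alike: 636 of 676 had the genome-wide background, and the median pileup of these 636 was 25 fragments. Over all 990 the pileup began at 21 fragments and 80.9% had 28 or fewer, so most stood just above the height that the list requires.

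Peaks between genes were mostly of the other kind. Only 141 of the 537 whose background was recovered had the genome-wide level, the median background was 11.8 fragments and the median pileup 42. The highest input fold of all lay here, 179440 bp from Arhgef26, the gene of a RhoG exchange factor (chromosome 3, 62159104 to 62159457). It had 175 fragments over the genome-wide background, a fold of 23.6, and the OE folds at the place were 48.2, 13.3, 9.80 and 33.3. The next, inside the RNA-binding protein gene Zc3h7a (chromosome 16, 11143906 to 11144315), had a fold of 14.7 and stood on a background of 92.6 fragments with a pileup of 1372. All 4 OE lists overlapped it too, with folds of 19.7, 10.4, 8.90 and 23.7.

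The other strong peaks likewise lay more than 1 kb from gene ends. Peaks 24198 bp from Rpp21, a ribonuclease P subunit gene, and 696719 bp from Neto1, of an auxiliary subunit of kainate receptors, had folds of 14.6 and 14.5, and all 4 OE lists overlapped both. A peak 11624 bp from Apbb1ip, a Rap1 effector gene, had a fold of 13.6 and was overlapped in OE libraries 2 and 3. Peaks inside the organic anion transporter gene Slc22a29 (13.0), inside Filip1l (12.7) and inside Cdk8, the Mediator kinase gene (10.3), were overlapped by all 4 OE lists. The peak 32405 bp from Sp3, which encodes a GC-box factor, had 12.8 and an overlap in OE library 2 alone. Near Epm2a, the laforin gene, the fold was 12.6 with an overlap in OE library 1 alone, and near Gpd2, of mitochondrial glycerol phosphate dehydrogenase, 10.7 with overlaps in OE libraries 1 and 4. None of these was overlapped by a KO list.

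**Figure D2:**
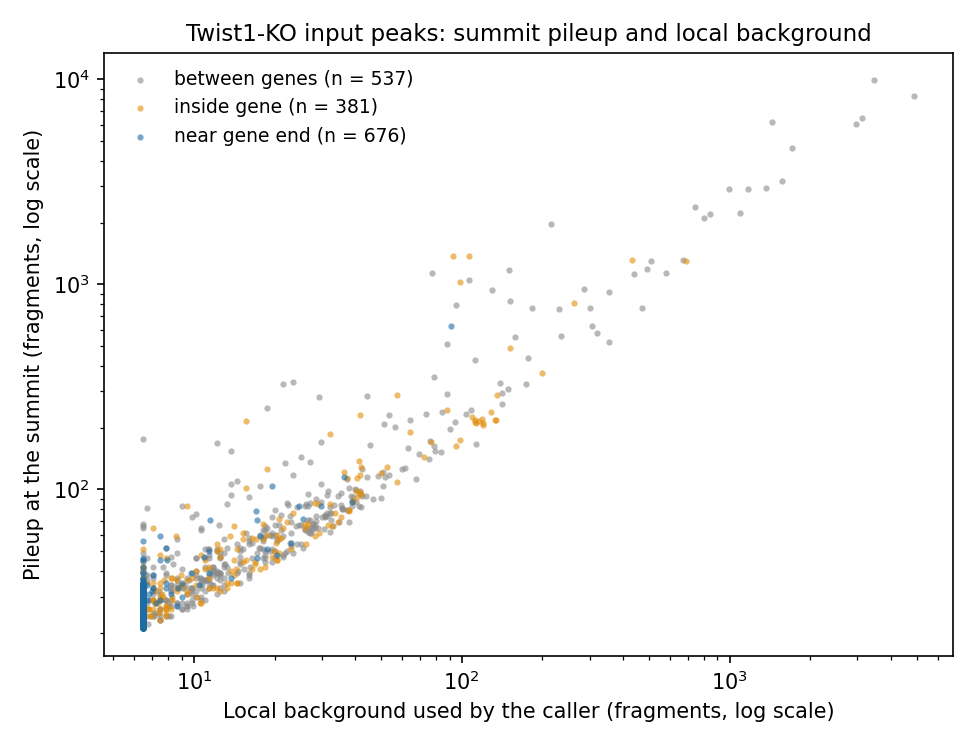
Pileup at the summit against the local background used by the caller, both in fragments on log axes, for the 1594 input peaks where both were recovered, coloured by position. Near-end peaks (blue) stack at the genome-wide background of 6.46 fragments, while peaks between genes (grey) and inside genes (orange) spread up to far higher backgrounds.

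Of the 1602 input peaks, 452 (28.2%) were overlapped by no OE list and the rest by at least 1. The share in no OE list was 57.3% when summits had to lie within 100 bp and 56.2% with OE libraries 1 and 4 only, so whether most input peaks recur depends on these choices. OE lists 1 to 4 overlapped 665 (41.5%), 983 (61.4%), 1003 (62.6%) and 610 (38.1%) of the 1602 by at least 1 bp, while their peaks cover 0.438%, 2.31%, 2.23% and 0.274% of the bases of these chromosomes. All 4 OE lists overlapped 459 (28.7%). OE libraries 2 and 3 without the others overlapped 346, and OE libraries 1 and 4 without the others 66. The KO lists overlapped 21 (1.31%) and 15 (0.936%), and cover 0.00107% and 0.000689% of the bases. At least 1 KO list overlapped 25 input peaks (1.56%; 0.936% without KO library 2).

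Overlap with the OE lists was unequal by position. Near gene ends, 309 of 676 peaks (45.7%) were overlapped by all 4 OE lists and 34 (5.03%) by none. Inside genes the counts were 86 and 133 of 381, and between genes 64 and 285 of 545. Single OE lists overlapped 61.0%, 84.0%, 89.3% and 55.8% of near-end peaks and 23.9%, 37.2%, 33.8% and 21.5% of those between genes. KO lists overlapped 1 near-end peak, 2 inside genes and 22 between genes. The share that all 4 OE lists overlapped fell to 6.62% when every OE list was shortened to the 13784 strongest peaks and to 4.93% when summits had to lie within 100 bp. The median distance between an input summit and the summit of the OE peak over it was 110, 167, 173 and 108 bp in libraries 1 to 4.

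**Figure D3:**
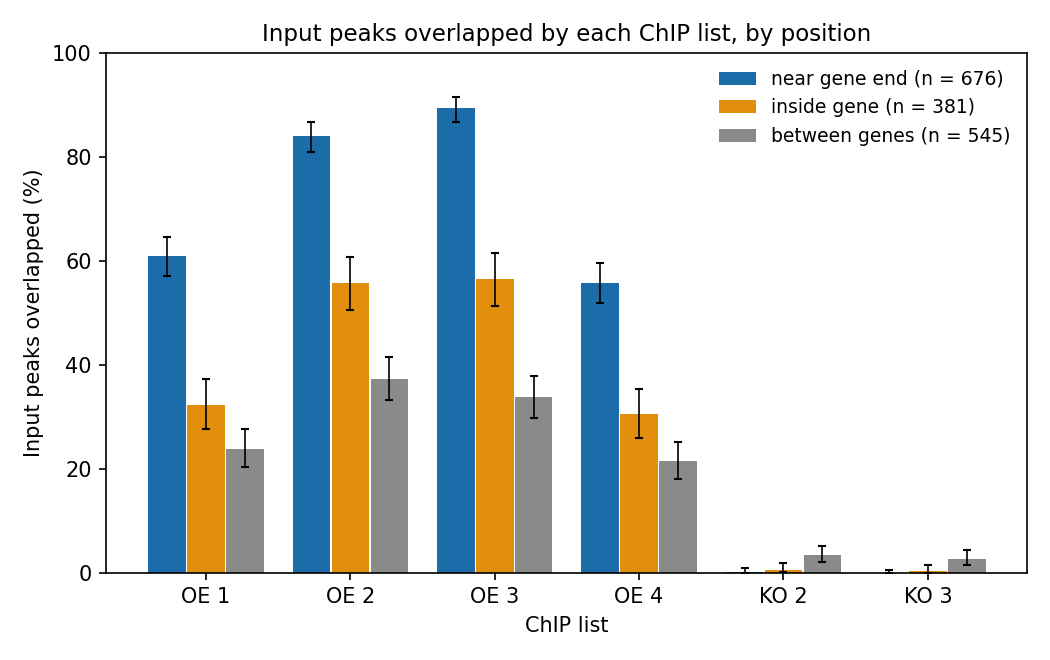
Percent of input peaks (y axis) overlapped by each of the 6 ChIP lists (x axis), for peaks near a gene end, inside genes and between genes; error bars are 95% exact binomial intervals, which cover counting error only. In each OE list near-end peaks are overlapped most often, up to 89.3% in OE library 3, and in both KO lists every bar is under 5%.

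The OE peaks above near-end input peaks were not the weakest of their lists. Ranked by fold among all peaks of their own list, they had a median percentile of 78.4, 65.2, 68.4 and 75.3 in OE libraries 1 to 4, where all near-end peaks of the list had 67.4, 46.7, 51.0 and 61.0. Where an input peak met more than 1 OE peak, the highest fold was taken. OE peaks overlapped by any input peak had median widths of 633, 824.5, 1019 and 567.5 bp, beside 412, 416, 483 and 420 bp in the whole lists. Wider peaks are met more readily under the 1 bp rule, and the part of width was not tested. The highest such input peak lay 47 bp from an end of Fcgr3, an immunoglobulin G receptor gene (chromosome 1, 171065813 to 171066058), with a fold of 7.64 and OE folds of 27.4, 12.2, 8.10 and 24.5. It covers part of the tRNA gene n-TLcag6. Another peak 1323 bp inside Fcgr3 (fold 8.19) covers part of the tRNA gene n-TGtcc1. E030030I06Rik had an input fold of 6.30 and OE folds of 22.2, 42.5, 61.8 and 19.02. The others of the 5 highest were at gene models known by number only, Gm38418 (7.10), LOC115488283 (6.17) and Gm40881 (5.99), and all 4 OE lists overlapped them.

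Near-end input peaks without any OE peak were few. The highest was in Ptgdr2, a prostaglandin D receptor gene (chromosome 19, 10924640 to 10924834), with a fold of 4.83 and a pileup of 35. Next came a peak 444 bp from Hjurp, which encodes the chaperone of the centromeric histone, with 4.07. Gm51572 (3.94) and Gm51571 (3.91) lie within 50 kb of each other on chromosome 8, and the splicing regulator gene Sfswap followed with 3.89. Of the 34 such peaks, 18 had the genome-wide background.

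Counted by genes, 745 of 20665 protein-coding genes (3.61%) had an input summit within 1 kb of an end. Of these 745, 67.8%, 91.3%, 93.3% and 63.2% also had an OE summit within 1 kb of an end in libraries 1 to 4, where the share over all genes was 28.2%, 60.6%, 59.4% and 23.5%. All 4 OE lists were present at 413 (55.4%; 18.9% of all genes) and none at 19 (2.55%; 33.3% of all genes). Read the other way, the share of genes with an input peak was 0.276% among the 6885 genes with no OE list and 1.49%, 2.97% and 5.44% with 1, 2 and 3 lists. It was 10.6% among the 3901 genes with all 4, and 5.82% among genes with OE libraries 2 and 3 as the only lists required. KO lists had a summit near 7 and 4 of all genes (0.0339% and 0.0194%), and near 2 and 1 of the 745. Whether the input served as the control of the ChIP lists is not given in the sources used here, and its part in these overlaps was not tested.

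**Figure D4:**
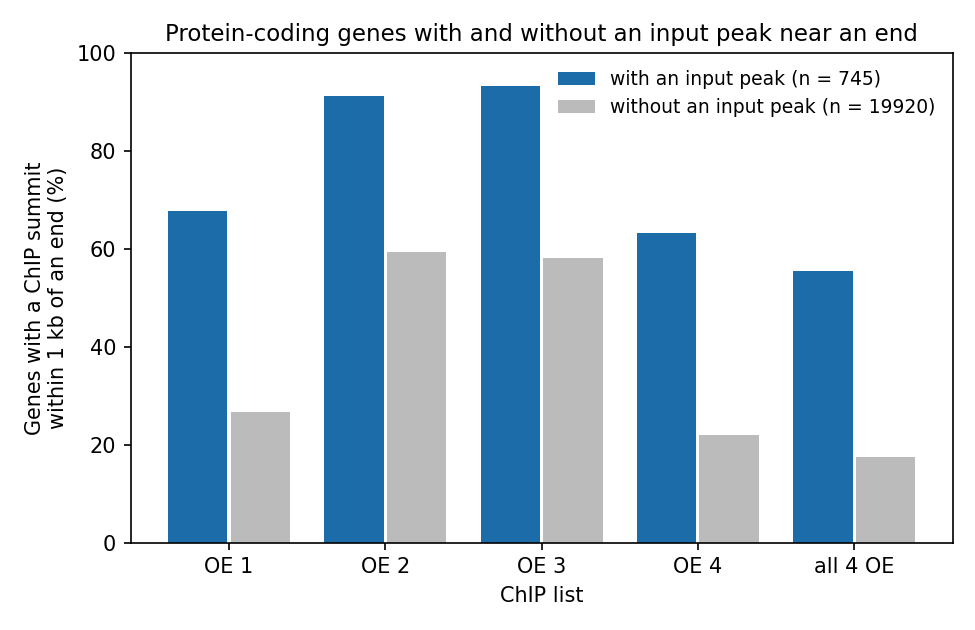
Percent of protein-coding genes (y axis) with an OE summit within 1 kb of an end, by OE list and for all 4 lists together (x axis), for the 745 genes with an input summit within 1 kb of an end (blue) and the 19920 without (grey). The blue bar is higher in each list, from 63.2% against 22.0% in OE library 4 to 93.3% against 58.1% in OE library 3.

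Of the 15 gene lists looked at, 8 held at least 1 gene with a near-end input peak, where 3.61% of all genes had one. Among genes of basic cell functions these were 1 of 80 cytosolic ribosomal protein genes (Rpl19), 2 of 97 of the respiratory chain and ATP synthase (Ndufaf8 and Ndufv2), 2 of 53 translation initiation factor genes (Eif5b and Eif4a3l1) and 1 of 52 of the spliceosome (Srsf4). None of 63 replication-dependent histone genes, 38 proteasome genes or 36 genes of replication licensing and the cell cycle did. OE libraries 1 to 4 had a summit near 14.3%, 93.7%, 90.5% and 3.17% of the histone genes and near 10.5%, 84.2%, 89.5% and 7.89% of the proteasome genes, beside 28.2%, 60.6%, 59.4% and 23.5% of all genes. Ndufv2, a subunit of respiratory complex I, had an input fold of 3.62 and OE folds of 34.4, 6.43, 4.93 and 27.2. At Eif5b, which joins the ribosomal subunits at initiation, the input fold was 3.49 and the OE folds were 26.95, 24.3, 21.1 and 19.1.

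The zinc finger genes named Zfp had the largest count, 18 of 386 (4.66%, beside 3.61% of all genes). Their highest were Zfp384, described above, Zfp978 (4.37), Zfp24 (4.29) and Zfp281 (4.02), and all but Zfp281, which OE libraries 2 and 3 overlapped, carried all 4 OE lists. Of 39 Hox genes 3 had one: Hoxa5 and Hoxa6, which specify axial position and here share a peak, and Hoxb13, each with 3.49. Olfactory receptor genes, large tandem families silent outside the nose, had none among 1100, and vomeronasal receptor genes had 3 among 352 (Vmn1r4, Vmn2r111 and Vmn2r29).

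Few of the genes listed for the differentiation itself had a near-end input peak. The lists are short, and Neurod2, which is in none of them, had one with an input fold of 3.35. None of 24 pluripotency genes, 25 neural crest, mesenchyme and epithelial-mesenchymal transition genes or 23 basic helix-loop-helix partner, Id and Hes genes had an input peak within 1 kb of an end. Among 23 neural progenitor genes, Zic2, a zinc finger gene of neural tube closure, had one, with an input fold of 3.49 and overlaps in OE libraries 1 and 4 with 17.5 and 16.8. In the same lists, all 4 OE libraries had a summit near 7 of 24, 8 of 25, 10 of 23 and 7 of 23 genes, beside 18.9% of all genes. With 3.61% of all genes carrying an input peak, lists this short cannot show whether their genes had fewer. Twist1 itself had no input peak within 1 kb of an end, which does not check its deletion, and a list of DNA peaks does not show the expression of cell type markers.

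Promoters that held an input summit were rich in G, C and CG. RefSeq windows from 250 bases before to 50 after a gene start were at hand for 20085 starts of 16457 genes on 18 chromosomes, and 303 held an input summit. Their median GC content was 69.3% (57.0% over all windows) and their median number of CG dinucleotides 29 (14 over all). The share with an input summit rose with CG count, from 0.0362% of windows with 0 to 4 CG to 4.58% of those with 30 or more. By GC content it was 5.89% between 70% and 80% and 0.360% (1 of 278) between 80% and 90%. Windows with a peak of all 4 OE lists and no input summit were as rich, with a median of 69.7% and 30 CG.

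Some motifs were more common and others less common in these windows than in all windows, a difference that was not tested. GGGCGG, the GC box, was in 91.1% of windows with an input summit and 47.0% of all, and in 82.6% of those with all 4 OE lists and no input summit. TATAAA was in 1.32% of windows with an input summit, 12.7% of all and 4.55% of those with all 4 OE lists and no input summit. In the same order CTTCCGG was in 18.8%, 11.9% and 13.8%, AAGATGGC in 5.94%, 3.06% and 3.68%, and CCAAT in 36.0%, 38.1% and 31.9%. The E-box CANNTG, the motif class of basic helix-loop-helix factors, was in 56.4% of windows with an input summit, in 68.7% of all and in 66.9% of those with all 4 OE lists and no input summit. Its forms CATCTG or CAGATG were in 7.59%, 14.6% and 12.2% in that order, and CACCTG or CAGGTG in 16.5%, 20.03% and 25.9%. CATATG, at Hipk4, was in 1.65%, 2.89% and 1.26%, TGACGTCA in 3.30%, 2.30% and 2.49%, and the NRF1 palindrome in 1.98%, 1.34% and 2.65%. The forms of the E-box are counted within CANNTG too, all motifs were searched on both strands, and a match shows only that the letters are there.

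**Figure D5:**
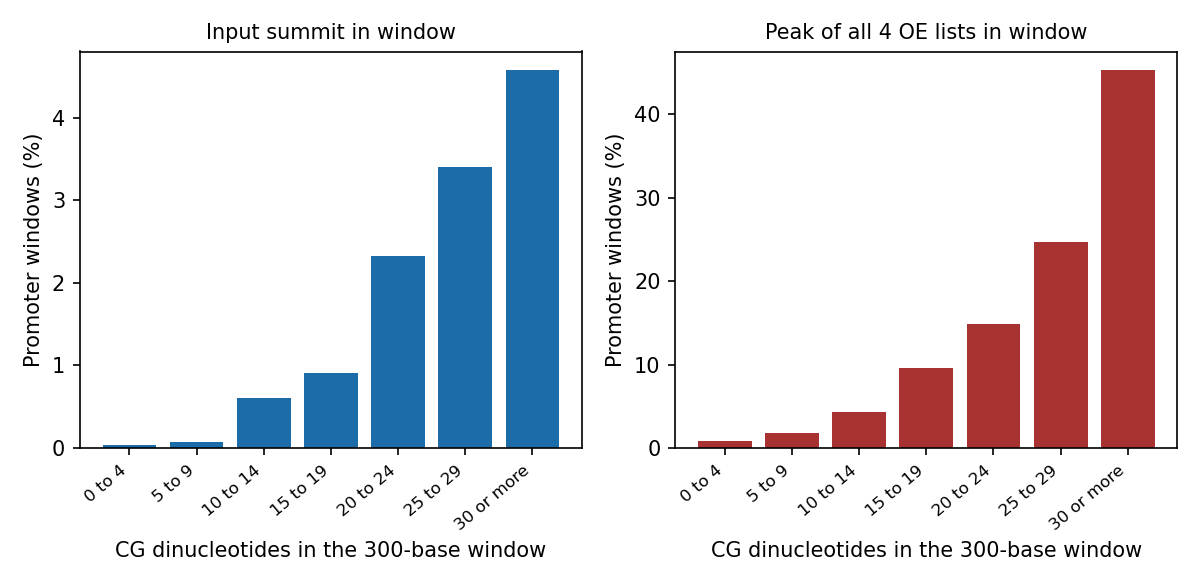
Percent of 300-base promoter windows (y axes, different scales) that held an input summit (left) or a peak of all 4 OE lists (right), by number of CG dinucleotides in the window (x axis). Both rise along the axis, the input from 0.0362% to 4.58% and the OE lists from 0.851% to 45.3%.

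In each class of 10 or more CG, windows with an input summit carried all 4 OE lists more often than those without. With 30 or more CG, 64.9% of 148 windows with an input summit had peaks of all 4 OE lists, and 44.3% of 3086 without. With 25 to 29 the shares were 40.9% of 66 and 24.2% of 1870, and with 20 to 24 34.0% of 53 and 14.5% of 2228. With 15 to 19 they were 7 of 20 and 9.37% of 2189, and with 10 to 14, 1 of 12 and 4.23% of 1962. Below 10 CG only 4 windows held an input summit, and none of them carried all 4 OE lists (0.851% and 1.81% of windows without, in the classes of 0 to 4 and 5 to 9). These windows are not independent replicates, and no test was made.

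The input peaks away from genes were clustered. Of the 1602, 687 (42.9%) had another input summit within 50 kb, a share of 21.9% near gene ends, 47.2% inside genes and 65.9% between genes. Linking such neighbours gave 915 lone peaks, 147 groups of 2 to 4 and 34 groups of 5 or more, which held 334 peaks. In these 34 groups 56.9% of the peaks were in no OE list, 7.78% were near a gene end, and the median background, where recovered, was 18.4 fragments. Without these groups 51.3% of the remaining peaks were near gene ends and 34.0% were in all 4 OE lists. Linking was not particular to the input, in lists of very different length. The share with another summit of the same list within 50 kb was 71.8%, 96.1%, 94.7% and 61.2% in OE lists 1 to 4. It was 40.7% and 57.7% in KO lists 2 and 3.

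The group with most peaks held 27 peaks at Gm40469 and Gm21119 (chromosome 8, 20513149 to 20638195), of which 17 were in no OE list. The next held 24 at Sfi1, which encodes a centrin-binding protein (chromosome 11, 3101093 to 3199981), with a median background of 111 fragments, 17.1 times the genome-wide level. A group of 23 lay at Gm15319 (chromosome 8, 20266680 to 20437004) and a group of 17 at Dynlt1b, a dynein light chain gene, with Gm2808 and Gm29721 (chromosome 17, 6420563 to 6545525). A group of 15 lay at Gm3667, Gm10406, Gm31035 and Gm3696 on chromosome 14. Groups of 15 and 14 lay among zinc finger genes of chromosome 4, at Zfp992 and Zfp981 and at Zfp978, Zfp991 and Rex2.

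A group of 20 peaks lay near the start of the chromosome 9 assembly (3000304 to 3038255), with the tRNA methyltransferase gene Alkbh8 as its nearest gene. Its median background was the highest among the groups of 5 or more, 846 fragments, 131 times the genome-wide level. That median leaves out peaks of the group whose background was not recovered. OE libraries 1 and 4 overlapped all 20 peaks, with median folds of 15.6 and 12.8 and ranges of 12.1 to 31.3 and 9.83 to 28.1. OE libraries 2 and 3 overlapped 6 and 4, with median folds of 1.28 and 1.37, and KO libraries 2 and 3 overlapped 7 and 9, with 1.52 and 1.45. The libraries with high folds here, OE 1 and 4, are those whose commonest background was 1.00 and 1.20 fragments, while OE libraries 2 and 3 and both KO libraries had 4.73 to 5.38. The part of this difference in the folds was not tested.

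Both KO lists overlapped 11 input peaks, at differing places. The 10 highest comprised 5 of the chromosome 9 group and peaks 282087 bp from the peroxisome gene Pex2, 116715 bp from Fam174a, 116393 bp from Gm2244, 1035450 bp from Lrrc4c, the gene of a netrin-G ligand, and inside Camk1d, a calmodulin-dependent kinase gene. Near Pex2 the input fold was 9.76, the OE folds were 6.57, 5.92, 5.70 and 5.40, and the KO folds 1.81 and 1.33. In Camk1d, on a background of 41.6 fragments, the input fold was 2.79, OE libraries 2 and 3 had 4.43 and 4.31, and KO libraries 2 and 3 had 2.85 and 2.84. Near Lrrc4c the input fold was 2.04, the OE folds were 14.5, 1.70, 1.69 and 11.8, and the KO folds 1.57 and 1.60. Near Gm2244 the input fold was 2.07, OE libraries 1, 2 and 4 had 15.2, 1.07 and 12.5, and the KO folds were 1.09 and 1.17. High folds in OE libraries 1 and 4 alone were thus not particular to the chromosome 9 group. Where KO and input summits met they lay a median of 5 and 6 bp apart in KO libraries 2 and 3.

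Read as a share of each ChIP list, input peaks overlapped 2.94%, 0.917%, 1.14% and 4.25% of the peaks of OE libraries 1 to 4, a mean of 2.31% ± 1.58 (SD, n = 4). Of KO peaks they overlapped 21 of 81 in library 2 (25.9%) and 15 of 52 in library 3 (28.8%), a mean of 27.4% ± 2.06 (SD, n = 2). Of these, 7 in KO library 2 and 9 in KO library 3 lay in the chromosome 9 group. The difference, OE minus KO, was -25.1 percentage points (-45.9 at ChIP −log10 q of at least 10), and the two-sided exact permutation test over the 15 splits of 6 libraries gave p = 0.067, the smallest it allows, so the design cannot pass 0.05. List length largely fixes this outcome: 1602 input peaks come to 7.34%, 1.53%, 1.87% and 11.6% of the number of peaks in OE lists 1 to 4, so that with 1 input peak to a ChIP peak no OE list could reach the KO shares. With the 52 highest folds of every list, a comparison added after seeing the data, input peaks overlapped 2, 0, 0 and 4 peaks in OE libraries 1 to 4 and 0 and 15 in KO libraries 2 and 3. The groups then overlapped, the difference was -11.5 percentage points and the exact permutation p was 0.333, so the groups and the list lengths cannot be told apart here. This cut removed the lowest folds of KO list 2 (81 peaks) and none of KO list 3 (52 peaks). KO peaks over input were low in fold, with median percentiles of 14.8 and 15.4 within KO lists 2 and 3.

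Some of the peaks away from protein-coding genes met genes of other kinds. The widest, 5833 bp on chromosome 17 (39842997 to 39848829), covers the pseudogene Rn18s-rs5, a copy of 18S ribosomal RNA sequence, with an input fold of 9.09 and overlaps in all 4 OE lists and 1 KO list. Vmn2r-ps17, a vomeronasal receptor pseudogene on chromosome 4, held peaks with folds of up to 8.85. Counting genes of every biotype, 49.7% of input peaks were within 1 kb of a gene end and 22.8% between genes. Over whole chromosomes the density ran from 0.288 peaks per Mb on chromosome 3 to 1.34 on chromosome 17, and the latter was 0.812 without the groups of 5 or more.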

How the data were processed

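ChIP-seq of TWIST1 and input DNA were measured in mouse embryoid bodies. The submitters' processing notes name MACS2 for peaks and BWA, Trimmomatic and Picard for reads, and the builds mm10 and GRCm38.p5. For versions, settings and the control of peak calling the entry is "not given in the sources used here". The deposited files used here are peak lists, 1 for each of 7 of the 9 libraries and not pooled. Per the file layout, the authors' caller gave each peak a fold enrichment (a linear ratio), −log10 of its p-value and q-value, and a score, a whole-number multiple of −log10 q that served only to check the layout. Every fold of a peak is the authors' own.

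Python 3.11.15 with pandas 2.3.3, numpy 2.4.6 and scipy 1.17.1 was used, and figures were drawn with matplotlib 3.10.9. Positions count from 1 on mm10. Read totals are not given. Fold, with 1 added to height and background, and −log10 p fix a whole-number pileup and a background, accepted within 0.01 of −log10 p. The commonest background is given in place of depth, and whether it follows depth was not tested. This background was 6.46 fragments in the input, 1.00 in OE library 1 and 1.20 in OE library 4. It was between 4.73 and 5.38 in the remaining ChIP libraries (at most 3000 peaks read per list). Genes were the 20665 protein-coding RefSeq genes of chromosomes 1 to 19 (GRCm38.p6, same coordinates), whose table has no strand or exons; promoter windows with a strand matched 79.6% of them on 18 chromosomes. Overlap meant 1 bp, and linked summits lay within 50 kb. Groups came from the sample titles. The share of ChIP peaks overlapped by input was compared by an exact permutation test over libraries, whose p measures only the spread between these libraries.

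Named genes are those nearest the 10 highest folds, the 5 highest of each position class (near ends also by overlap with all or no OE list), up to 10 peaks in both KO lists, the 3 lowest q-values, the 5 largest groups and up to 4 per gene list by fold. Promoters are those with the 4 highest folds among summits in a promoter window that all 4 OE lists overlap and the 4 highest that none overlaps. Ddx59, Tpt1, Neurod2, the genes of the further groups and those of other biotypes were chosen after their values were seen. Members and lists were chosen with earlier results of these data known. The procedures were tested on simulated data. Alternatives covered distances, q-value limits, the overlap rule, list lengths and leaving out each library, 54 of them planned and 13 added after seeing the data.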

Additional observations from a re-analysis of the deposited data

How the results depend on the processing

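The OE minus KO difference kept its sign in each of its alternatives, but list length largely fixes that sign in most of them. With the 52 highest folds of each list, input peaks overlapped 3.85%, 0%, 0% and 7.69% in OE libraries 1 to 4. In KO libraries 2 and 3 the shares were 0% and 28.8%, so the sign there rests on KO library 3 alone, whose list the cut left whole. In KO library 2 the cut took the lowest folds, and its peaks over input had a median fold percentile of 14.8. Of 67 alternatives in all, 41 moved a share by more than its counting interval. The share between genes passed the 58.1% of bases at the strictest input q-value, and the share in no OE list was a majority under 2 of the settings below. The near-end share was 33.6% within 0.5 kb and 57.2% within 5 kb, and 30.5% and 10.1% at −log10 q of at least 5 and 10. It was 49.7% with genes of every biotype and 51.3% without groups of 5 or more linked peaks (both chosen after seeing the data). The share between genes was 29.3% within 5 kb, 46.1% and 67.5% at −log10 q of at least 5 and 10, and 22.8% and 25.8% under those same added settings. The linked share was 28.7% at 10 kb, 62.0% at 200 kb, and 46.7% and 53.0% at the stricter q-values. The share in all 4 OE lists was 23.3% with an overlap of at least 50% of the input peak, 4.93% with summits within 100 bp, 6.62% with equal list lengths, 24.9% and 19.4% at input −log10 q of at least 5 and 10, 19.7% at ChIP −log10 q of at least 10, and 29.8% to 33.7% leaving out 1 OE library. The share in no OE list was 30.8%, 57.3%, 32.9%, 31.0% and 36.1% under the same settings without equal lengths, which were not run for it, and 28.6% to 31.5% leaving out 1 OE library. Without the groups of 5 or more these shares were 34.0% and 20.7%, with OE libraries 2 and 3 only 57.2% and 33.2%, and with OE libraries 1 and 4 only 35.8% and 56.2%. The share in a KO list was 3.11% and 9.33% at input −log10 q of at least 5 and 10, and 0.936% to 1.31% with 1 KO library.

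The OE minus KO difference in the share of ChIP peaks overlapped (-25.1) was -23.1 with summits within 100 bp, -45.9 at ChIP −log10 q of at least 10, -11.5 with the 52 highest folds of each list (exact permutation p = 0.333, chosen after seeing the data) and -26.5 to -23.6 leaving out 1 library. With the replicate block it was -26.4 over the 2 pairs that share a number (-25.0 and -27.7), where the smallest exact p is 0.5. The labels do not say that a number marks a shared batch. Among genes with all 4 OE lists, the share with an input peak was 9.22% within 0.5 kb, 9.18% to 10.5% leaving out 1 OE library and 5.82% with OE libraries 2 and 3 only. Beyond shorter lists and stricter rules, the causes were not tested. Of near-end peaks most stood just above the height needed for listing, so weaker sites would not have been listed.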
